A study of Mus musculus with 2 samples.

Results

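Zfp42 encodes REX1, a zinc finger protein of the YY1 family whose transcript is a classical marker of undifferentiated pluripotent cells. REX1 is abundant in the inner cell mass and in naïve embryonic stem cells (ESCs), and cells of the epiblast lose it as they leave the naïve state, so that reporters of this gene are used to follow that exit. REX1 is also a target of the ubiquitin ligase RLIM (RNF12), and it acts on the Xist and Tsix pair that controls X-chromosome inactivation. Zfp42 was 1 of 32286 features in each of 2 single-cell RNA sequencing (scRNA-seq) libraries, and it was chosen by its difference between lines in an earlier analysis of these same libraries. Its levels are therefore given as a description, with no test.

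The ESC library (0 h) held ESCs from serum/LIF culture with feeders, and the 48h-EpiLC library held epiblast-like cells after 48 h in N2B27 medium with activin A, bFGF and KSR. Both were mixtures, in equal cell numbers, of wild-type (WT) cells with the ROSAmT/mG reporter, which transcribe tdTomato, and Cnot8 knockout (KO) cells, all of the ICR strain. Cnot8 is a subunit of Ccr4-Not that removes poly(A) from mRNAs. Each library is 1 sample with no replicate, so stage and library cannot be told apart, and the intervals below (95%) cover counting error only. The study describes the KO lines as picked colonies from blastocysts of heterozygous parents, and its EpiLC protocol as starting from 2i/LIF cells, whereas the ESC library was from serum/LIF.

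Barcodes with 1000 or more genes and no more than 10% of unique molecular identifiers (UMIs) from mitochondrial genes were kept, which left 11054 of 13184 barcodes in the ESC library and 9400 of 12427 in the 48h-EpiLC library, at medians of 11883 and 15284 UMIs. A cell was given to the WT line with at least 1 tdTomato UMI and no UMI of the Y-linked Ddx3y, Eif2s3y, Kdm5d and Uty, and to the KO line with no tdTomato UMI and at least 2 Y-linked UMIs. This gave 435 WT and 2978 KO cells in the ESC library and 368 WT and 2977 KO cells in the 48h-EpiLC library, whereas 7641 and 6055 cells were given to neither line. In each library 35 cells carried both tdTomato and at least 2 Y-linked UMIs. By the rule itself, the classes compared differ in Y-linked transcripts and the tdTomato reporter besides Cnot8. The effects of these, and of any other difference between the lines, cannot be told apart. The number of X chromosomes in each line is not given in the sources used here, so X-linked genes named below share this limit. Cnot8 RNA was at 43.1 CPM (UMIs per 1000000 UMIs of the class) in WT and 72.1 CPM in KO ESCs, and at 49.7 (WT) and 62.6 CPM (KO) in 48h-EpiLCs. The guide RNA targeted exon 2 and the kit counts 3′ ends, so that these values do not check the KO label. That label has no independent check here, and the labels give the genotype of both mixed libraries as wild type, so every KO value rests on the line inferred from these marks. The 2 libraries shared 41 barcodes, of which 2 belonged to cells given a line in both.

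Zfp42 (ENSMUSG00000051176) lies on the minus strand at chr8:43295063-43306980 (GRCm38, GENCODE M21). The 3 annotated transcripts have 4 or 5 exons, with all 864 coding bases in a single exon, which also holds the 3′ untranslated region of 529 to 533 bases that the 3′ kit reads. No other feature of the annotation overlapped Zfp42 on either strand. The start region is shown because it carries the octamer ATTTGCAT (capitals), the letters that POU factors such as Oct4 (Pou5f1) read and a known element of this promoter. It spans chr8:43306960-43307259 (minus strand, RefSeq on GRCm38.p6), from 250 bases before the RefSeq start to 50 after it.
Zfp42 start region: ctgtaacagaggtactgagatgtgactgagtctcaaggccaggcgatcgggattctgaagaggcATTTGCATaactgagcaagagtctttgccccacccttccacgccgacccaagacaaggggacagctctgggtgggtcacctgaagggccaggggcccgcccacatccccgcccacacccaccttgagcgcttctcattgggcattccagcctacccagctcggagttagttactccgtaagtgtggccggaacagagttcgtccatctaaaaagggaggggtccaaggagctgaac
The octamer occurred once on both strands together, 186 bases before the start, and 570 of 32851 start regions of this length in the table (1.74%) held it on either strand. Of the 8 naïve list genes with a region in the table, 0 held it. The same window had 2 matches to the GC box letters GGGCGG, held by 35.7% of regions, 1 match to CCAAT, held by 37.4%, and 0 matches to TATAAA, held by 13.6%. These matches describe letters, not bound sites.

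Zfp42 was highest in KO ESCs and lowest in WT 48h-EpiLCs. It was at 603 CPM (596 to 611) in KO ESCs, 304 CPM (289.9 to 318) in WT ESCs, 97.1 CPM (94.7 to 99.7) in KO 48h-EpiLCs and 37.5 CPM (32.8 to 42.6) in WT 48h-EpiLCs. These levels rest on 26615, 1868, 5760 and 233 Zfp42 UMIs, and no neighbours in this order had overlapping counting intervals. In ESCs KO cells had a median of 8 Zfp42 UMIs (quartiles 5 and 12, highest 42) and WT cells a median of 3 (quartiles 2 and 6, highest 21). In 48h-EpiLCs the medians were 1 UMI in KO cells (highest 27) and 0 UMIs in WT cells (highest 10).

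KO cells had 1.99-fold more Zfp42 than WT cells in ESCs (log2 ratio 0.99, 0.92 to 1.06) and 2.59-fold more in 48h-EpiLCs (1.37, 1.19 to 1.57). The log2 ratio was 0.38 larger in 48h-EpiLCs (0.18 to 0.59, an approximate interval for counting error only). Among genes with a mean of at least 5 CPM in the classes compared, 4.54% were at least 2-fold higher in KO ESCs and 2.77% in KO 48h-EpiLCs, at median log2 ratios of 0.13 and 0.08 over all genes. Relative to these medians Zfp42 was at 0.86 and 1.30. In ESCs 433 of 9277 genes had a ratio as high as that of Zfp42 or higher, and in 48h-EpiLCs 113 of 9385. Because the gene was chosen for this contrast, nothing is read from these shares.

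The KO to WT ratio was smaller among the deepest cells. With the same rule, cells of at least 20000 UMIs had a log2 ratio of 0.61 (0.46 to 0.76) in ESCs, from 47 WT and 490 KO cells, and of 1.02 (0.74 to 1.32) in 48h-EpiLCs, from 90 and 1126 cells. When cells of this depth were split by Y-linked UMIs alone (0 against at least 2), without tdTomato, it was 0.58 (0.51 to 0.64) in ESCs (286 WT and 517 KO cells) and 0.97 (0.86 to 1.08) in 48h-EpiLCs (742 and 1153 cells). At this depth the line call thus moved the ratio by less than its counting interval. With at least 2 tdTomato UMIs for WT cells of any depth it was 0.78 and 0.98, from only 33 and 24 WT cells. KO cells had the higher level in each of these comparisons.

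Between the stages, Zfp42 was 8.10-fold lower in WT 48h-EpiLCs than in WT ESCs (log2 ratio -3.02, -3.22 to -2.82), and 6.21-fold lower in KO cells (-2.63, -2.68 to -2.59). The 48h-EpiLC level was 12.3% of the ESC level in WT cells and 16.1% in KO cells. In the same comparisons 5.29% of genes in WT cells and 4.54% in KO cells were at least 2-fold lower, and 52 of 9242 and 53 of 9478 genes were as far down as Zfp42 or further. KO 48h-EpiLCs thus lay between WT 48h-EpiLCs and the ESCs of both lines in Zfp42 level.

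**Figure D1:**
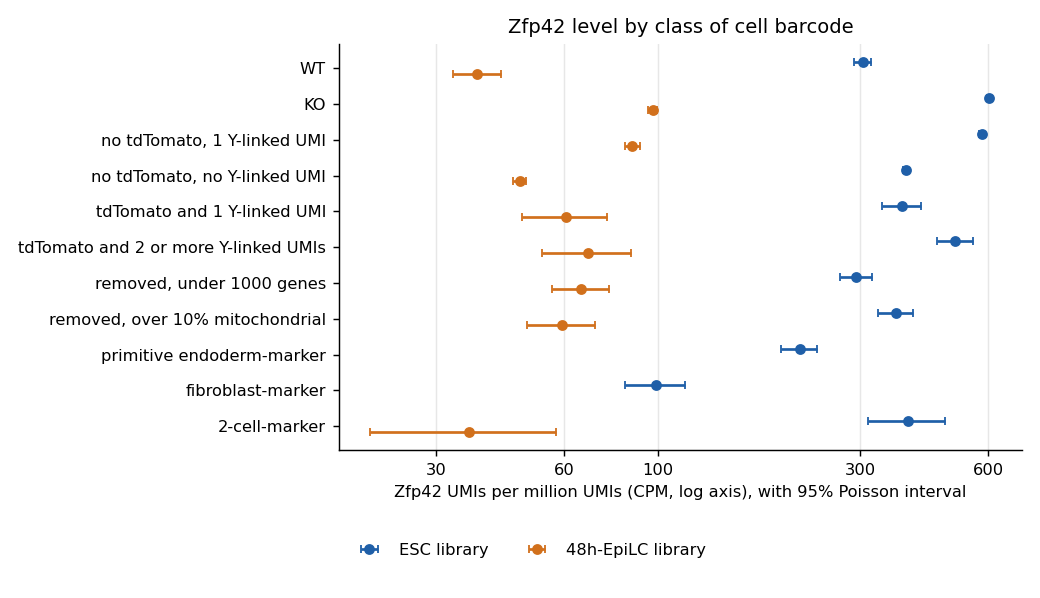
Zfp42 level (CPM, log axis, with 95% Poisson intervals for counting error) in each class of cell barcodes of the ESC library (blue) and the 48h-EpiLC library (orange). KO cells lie above WT cells in both libraries (603 against 304 and 97.1 against 37.5 CPM), and each class measured in both libraries is lower in 48h-EpiLCs.

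The cells given to neither line had levels between those of the lines or near them. Cells with no tdTomato and 1 Y-linked UMI, which the rule leaves just outside the KO line, had 579 CPM in the ESC library and 87.1 CPM in the 48h-EpiLC library. Cells with neither mark had 383 and 47.2 CPM, and cells with tdTomato and 1 Y-linked UMI had 376 and 60.6 CPM. Cells with tdTomato and at least 2 Y-linked UMIs, which can be doublets of both lines, had 501 and 68.4 CPM, between the KO and WT levels of their library.

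Other cell types were few among the cells given a line. In the ESC library, 106 kept cells carried at least 4 of 10 fibroblast markers (collagens Col1a1 and Col1a2 among them) at no less than 1000 CPM, the profile of feeder cells, and 134 carried at least 4 of 9 primitive endoderm markers (Gata6 and Sox17 among them). Zfp42 was at 98.9 CPM (83.7 to 116) in the fibroblast-marker cells and at 216 CPM (195 to 237) in the primitive endoderm-marker cells. The fibroblast-marker cells, which should lack Zfp42, held it at 19.8% of the level in kept cells without these markers, beside 18.5% for Dppa5a and 23.1% for Pou5f1, so that these 3 pluripotency transcripts were at a like low share there. Over these cells Zfp42 had a median of 0 UMIs, an upper quartile of 1 and a highest value of 17. After thinning its variance was 2.91 times the mean, with a wide interval (-0.23 to 6.05, from 99 cells). The level of 98.9 CPM is a mean over all 106 cells, and the source of Zfp42 in them was not tested. Of the KO ESCs, 115 carried markers of another type (57 primitive endoderm, 53 fibroblast at any share of UMIs and 6 2-cell-like, with overlap), against 6 of the WT ESCs. Without all such cells, the KO to WT log2 ratio in ESCs stayed within its counting interval. In 48h-EpiLCs, 12 KO and 0 WT cells carried such markers, and 1 kept cell of that library held 4 fibroblast markers, so no background cell type could be measured there.

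The share of cells with a Zfp42 UMI followed the levels. It was 97.0% of KO ESCs, 92.0% of WT ESCs, 68.4% of KO 48h-EpiLCs and 41.8% of WT 48h-EpiLCs, at median depths of 13368, 13151, 17628 and 15598 UMIs. Since a share depends on depth, each cell was also thinned to 5000 UMIs, which left out 23, 1, 9 and 1 shallower cells. The shares were then 88.4% (87.1 to 89.5), 71.9% (67.4 to 76.1), 32.4% (30.7 to 34.1) and 13.6% (10.3 to 17.6), with exact (Clopper-Pearson) intervals. In the fibroblast-marker cells the share was 36.8% unthinned, at a median of 12805 UMIs, and 26.3% (17.9 to 36.1) thinned. Both ESC shares thus lay above that of the fibroblast-marker cells of their own library, whereas the 48h-EpiLC shares have no such measure.

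**Figure D2:**
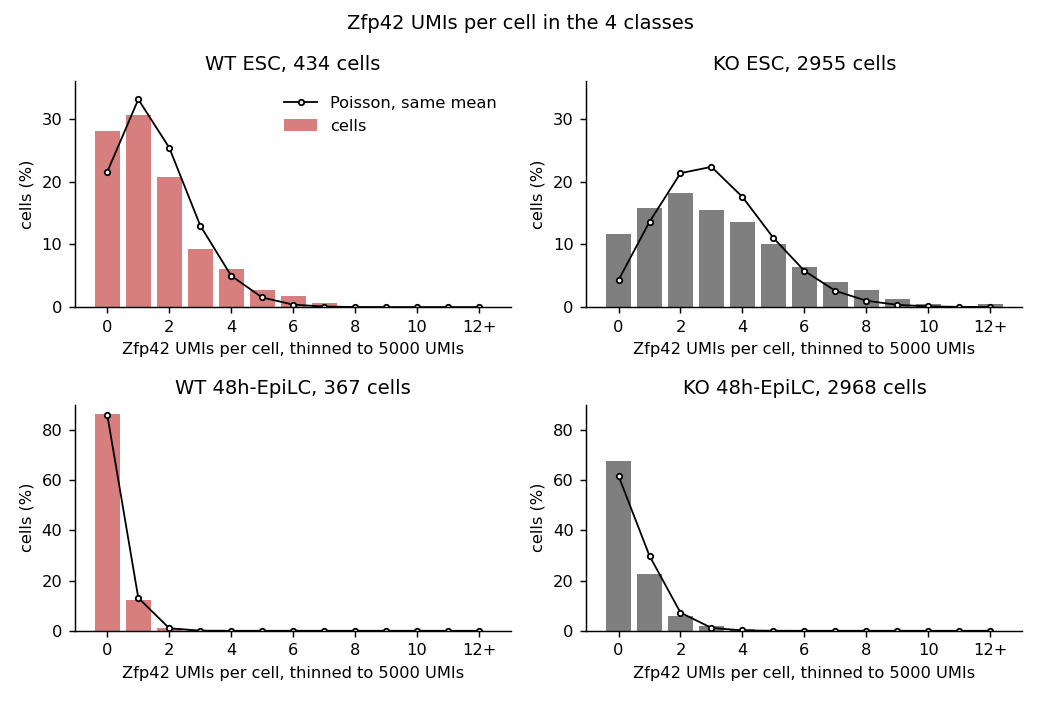
Share of cells (%) by number of Zfp42 UMIs after thinning to 5000 UMIs per cell, for each line and library (bars), with the Poisson share for the same mean (black line). Cells with no UMI exceed the Poisson share in both ESC classes and in KO 48h-EpiLCs, and WT 48h-EpiLCs lie close to it (86.4% against 85.8%).

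Zfp42 was unevenly spread over cells of the same class. After thinning, KO ESCs had a mean of 3.14 UMIs with a variance of 1.74 times the mean, and WT ESCs a mean of 1.53 with a variance of 1.48 times the mean. Only 3 of 98 genes of like mean (within 20%) had a larger ratio in KO ESCs, where their median was 1.14, and 7 of 241 in WT ESCs, where it was 1.09. Cells without a UMI made up 11.6% of KO ESCs against 4.32% for a Poisson count of this mean, and 28.1% against 21.6% in WT ESCs. At the upper end, 25.4% of KO ESCs and 5.30% of WT ESCs held at least 5 Zfp42 UMIs.

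In KO 48h-EpiLCs the mean was 0.484 UMIs with a variance of 1.64 times the mean, and 6 of 700 genes of like mean had a larger ratio, with a median of 1.03. A tail of 20 KO cells (0.674%) held at least 5 Zfp42 UMIs, against 0 of 367 WT cells, which allows a share of up to 1.00% by an exact interval. WT 48h-EpiLCs had a mean of 0.153 UMIs and a variance of 1.10 times the mean, at which 202 of 1166 genes of like mean had a larger ratio. Between-cell spread was therefore not detectable there beyond that of many other genes at this depth. The level of Zfp42 moved with depth in KO cells, from 678 CPM in the 745 shallowest to 544 CPM in the 744 deepest ESCs and from 116 to 90.4 CPM in as many 48h-EpiLCs, and WT cells divided in the same way showed no order. What depth contributes to the spread was not tested.

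Of the other naïve genes measured, none was as far above WT in KO ESCs as Zfp42. Because Zfp42 was chosen for its difference between lines, nothing is read from that rank. The naïve list held 15 transcription factors and markers of the naïve state (Nanog, Klf2, Klf4, Klf5, Esrrb, Tfcp2l1, Tbx3, Nr0b1, Nr5a2, Prdm14, Tcl1, Fbxo15, Dppa3, Dppa5a and Tfap2c). In ESCs, 0 of the 14 measured were at least 2-fold higher in KO cells, beside 4.54% of all genes, with a median log2 ratio of 0.21 against 0.13 for all genes. At this share a list of 14 would hold few such genes, so the count says little about the list. Klf4, a factor of the LIF response, was 92.0 CPM in KO against 155 CPM in WT ESCs (-0.75, -0.85 to -0.64). Nanog, the homeobox factor of the core network, was 56.1 against 84.5 CPM (-0.59, -0.73 to -0.45). Both ran opposite to Zfp42 between these classes. Among the 14 measured naïve genes, 6 had an interval below 0 and 6 above it, and Fbxo15 was the lowest (-0.83, -0.99 to -0.67).

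In 48h-EpiLCs, 3 of the 10 measured naïve genes were at least 2-fold higher in KO cells, beside 2.77% of all genes, with a median log2 ratio of 0.45 against 0.08 for all genes. Klf2, a Krüppel-like factor of the naïve network, was at 93.1 CPM in KO and 37.5 CPM in WT cells (1.31, 1.12 to 1.51), which is the ratio nearest to that of Zfp42 among the 10 measured. Esrrb, an orphan nuclear receptor, was at 11.3 against 3.54 CPM (1.68, 1.07 to 2.36, from 22 UMIs in WT cells). Dppa3, a factor that guards DNA methylation in the early embryo, was at 48.4 against 21.5 CPM (1.17, 0.92 to 1.43). Klf4 and Nanog were again lower in KO cells, at -0.79 and -0.67. Among the 10 measured, 4 had an interval below 0 and 5 above it.

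From ESCs to 48h-EpiLCs, 11 of 14 measured naïve genes were at least 2-fold lower in each line, beside 5.29% of all genes in WT and 4.54% in KO cells, with medians of -3.18 in WT and -2.32 in KO cells, beside -3.02 and -2.63 for Zfp42. In WT cells 7 of the 14 were further down than Zfp42, and in KO cells only Klf4 (-4.22), Tbx3 (-4.16) and Nr5a2 (-2.99) were. Dppa3 was higher in 48h-EpiLCs, at 0.41 in WT and 1.91 in KO cells. This comparison and that of KO with WT in 48h-EpiLCs share cells, so that the values stand side by side and are not independent.

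The formative list, genes of the post-implantation epiblast (Otx2, Pou3f1, Fgf5, Lef1, Dnmt3a, Dnmt3b and Sox3), ran against Zfp42 between the stages. In WT cells 5 of 7 and in KO cells 4 of 7 were at least 2-fold higher in 48h-EpiLCs, with medians of 1.43 and 1.51, beside 5.63% and 3.18% of all genes. Fgf5, the growth factor that defines this epiblast, went from 2.76 to 53.4 CPM in WT cells and from 1.29 to 35.9 CPM in KO cells. Pou3f1 (Oct6) went from 68.1 to 436 CPM in WT cells and from 78.7 to 382 CPM in KO cells. At least 2-fold lower in KO cells were 1 of 6 measured members in ESCs (Sox3, 4.26 against 8.77 CPM) and 0 of 7 in 48h-EpiLCs, where 1.7% and 1.25% of all genes were. The core list (Pou5f1, Sox2, Sall4 and Utf1) had 0 of 4 members at least 2-fold apart between the lines at either stage, where 4.54% and 2.77% of all genes were that much higher in KO cells, so that a count of 0 says nothing particular of 4 genes. Sox2, the SRY-box partner of Oct4, was the 1 core gene lower by 2-fold in WT 48h-EpiLCs (95.02 against 269 CPM), and Sall4 the 1 in KO 48h-EpiLCs (85.0 against 179 CPM). Of all genes 5.29% and 4.54% were that much lower. Both genes were lower in each line, Sox2 at -1.50 in WT and -0.88 in KO cells and Sall4 at -0.81 and -1.08.

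**Figure D3:**
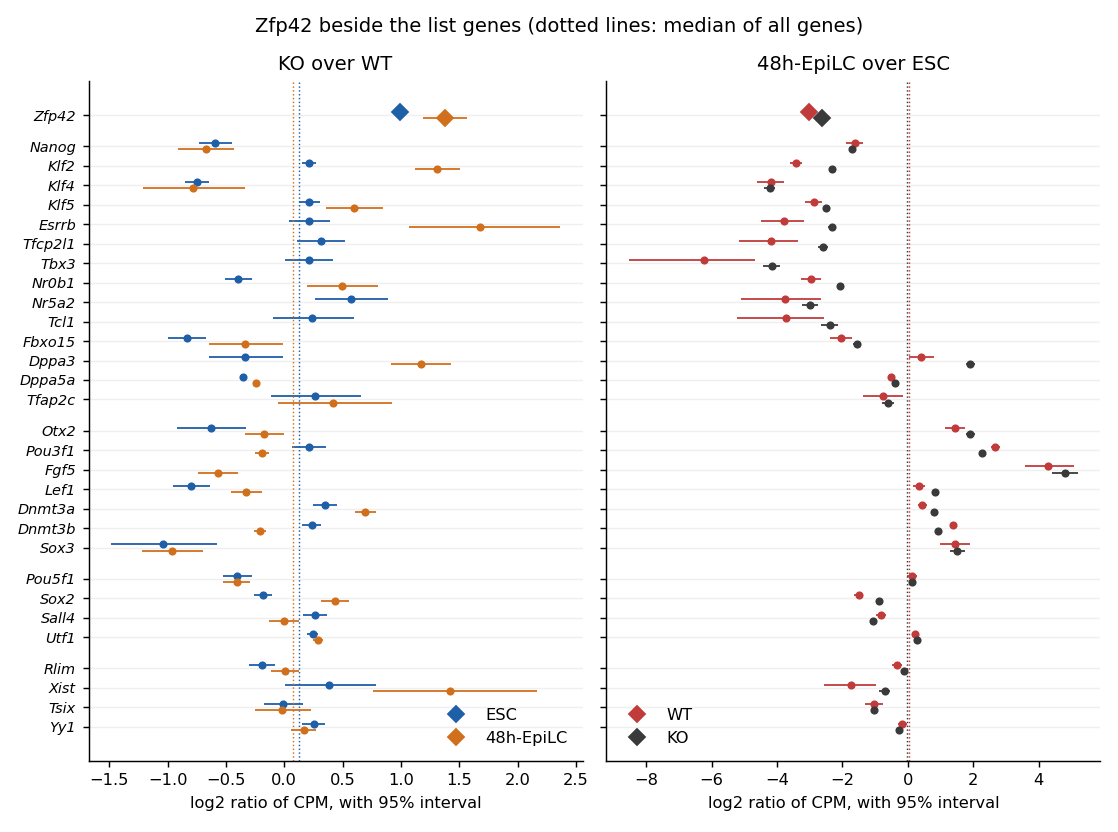
Log2 CPM ratios of Zfp42 (diamonds) and the measured list genes (points) with 95% counting intervals, for KO over WT in each library (left) and 48h-EpiLC over ESC in each line (right), with medians over all genes as dotted lines. Zfp42, which was chosen for its difference between lines, has the highest KO to WT ratio of those shown in ESCs (0.99), and Esrrb (1.68) and Xist (1.42) are above it in 48h-EpiLCs (1.37).

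Of the genes tied to REX1 itself, 4 of 5 were measured, and 0 of these were 2-fold higher in KO ESCs and 1, Xist, in KO 48h-EpiLCs, beside 4.54% and 2.77% of all genes. Rlim, the X-linked ubiquitin ligase that marks REX1 for degradation, was at 125 CPM in WT and 109 CPM in KO ESCs (-0.19, -0.30 to -0.08), and at 100.2 and 100.6 CPM in 48h-EpiLCs (0.01, -0.11 to 0.13). Yy1, the ubiquitous relative from which the family takes its name, was between 129 and 174 CPM in the 4 classes. Yy2, a retroposed relative, had 0 UMIs in every class, which allows at most 0.599 CPM by an exact interval in WT ESCs and less in the other classes. Xist, the silencing RNA of the X chromosome, was at 10.2 CPM in WT and 13.4 CPM in KO ESCs, and at 3.05 (19 UMIs) and 8.18 CPM in the respective 48h-EpiLCs. Its KO to WT log2 ratio was 0.38 (0.01 to 0.78) in ESCs and 1.42 (0.76 to 2.17) in 48h-EpiLCs, the latter above that of Zfp42 with overlapping intervals. Tsix, its antisense partner, was at 52.5 and 52.2 CPM and at 25.7 and 25.4 CPM. Whether the counting used strand is not given in the sources used here, so reads of Xist and Tsix may not be fully separated.

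Of 7 annotated features within 500 kb of Zfp42, 5 had 0 UMIs in every class, Adam26b, Adam26a, Gm5346, Adam34 and Gm45488. The other 2, both on the side of lower coordinates, were the tripartite motif genes Triml2, 101 kb away, and Triml1, 154 kb away. Triml2 was at 45.7 CPM in WT and 52.5 CPM in KO ESCs, and in 48h-EpiLCs at 16.4 CPM in WT and 37.3 CPM in KO cells. Triml1, in the same order, was at 28.9, 35.0, 10.3 and 22.8 CPM. Both were lower in 48h-EpiLCs than in ESCs in each line, by log2 ratios of -1.49 (Triml1) and -1.48 (Triml2) in WT and -0.62 and -0.49 in KO cells. The KO to WT log2 ratio of Triml2 was 0.20 (0.02 to 0.39) in ESCs and 1.18 (0.90 to 1.49) in 48h-EpiLCs, and that of Triml1 was 0.28 (0.05 to 0.51) and 1.15 (0.79 to 1.53).

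Within each class, cells with the most Zfp42 were compared with cells without a Zfp42 UMI after thinning, on CPM computed with Zfp42 left out. The cells with the most Zfp42 were 285 of 2968 KO and 50 of 367 WT 48h-EpiLCs, and 1609 of 2955 KO and 89 of 434 WT ESCs. These are unlike shares, so the classes are not ranked by this contrast. In KO 48h-EpiLCs, 285 cells with at least 2 Zfp42 UMIs stood against 2007 cells with none. There 9 of 11 measured naïve genes were at least 1.5-fold higher in the cells with Zfp42, at a median log2 ratio of 1.34, beside 6.64% of all genes and a median of 0.01. Nanog was at 40.7 against 13.2 CPM (log2 ratio 1.63, 1.16 to 2.09), Klf2 at 193 against 75.9 CPM (1.35, 1.14 to 1.55) and Fbxo15, an early target of Oct4, at 27.4 against 8.47 CPM (1.69, 1.11 to 2.26). The exceptions were Dppa5a, an RNA-binding protein of pluripotent cells (1.38-fold), and Dppa3, at 50.6 against 53.5 CPM (-0.08, -0.46 to 0.28). Of the formative genes 3 of 7 were at least 1.5-fold lower, with a median of -0.47, beside 5.01% of all genes. Those were Fgf5 (19.0 against 40.7 CPM), Pou3f1 (225 against 396 CPM) and Sox3 (5.62 against 12.9 CPM, from 8 UMIs).

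WT 48h-EpiLCs could be divided only into 50 cells with a Zfp42 UMI and 317 without, and at this size 17.5% of all genes were at least 1.5-fold higher and 18.1% lower. Of 9 measured naïve genes, 5 were at least 1.5-fold higher and 9 were on the higher side, with a median of 0.75 beside 0.01 for all genes, and 2 of 7 formative genes were at least 1.5-fold lower. Among the 5, Klf5 (9 UMIs), Nr0b1 (8 UMIs) and Tfap2c (4 UMIs) had intervals that span 0. So did the 2 formative genes, Otx2 (9 UMIs) and Sox3 (4 UMIs). Nanog was at 72.0 against 24.0 CPM (1.59, 0.69 to 2.43, from 18 UMIs) and Dppa3 at 48.0 against 16.4 CPM (1.55, 0.43 to 2.59, from 12 UMIs). Klf2 was at 44.0 against 33.4 CPM, with an interval that spans 0 (0.40, -0.69 to 1.35).

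In ESCs, cells with at least 3 Zfp42 UMIs were set against cells with none. In KO ESCs (1609 against 344 cells), 5 of 14 measured naïve genes were at least 1.5-fold higher, with a median of 0.34 beside 0.01 for all genes, where 4.02% were that much higher and 10.5% lower. In WT ESCs (89 against 122 cells) it was also 5 of 14, with a median of 0.48, beside 15.4% of all genes higher and 15.1% lower. Nanog led in KO ESCs at 78.1 against 26.7 CPM (1.55, 1.11 to 2.01) and was at 119 against 52.5 CPM in WT ESCs (1.18, 0.52 to 1.87). Nr5a2, an orphan nuclear receptor, was at 30.4 against 16.3 CPM in KO and at 27.0 against 6.56 CPM in WT ESCs, the latter from 12 UMIs. Dppa3 ran the other way in KO ESCs, at 10.9 against 31.4 CPM (-1.52, -2.02 to -1.003), and in WT ESCs it had only 2 UMIs in the cells with most Zfp42. Of the formative genes, 3 of 6 were at least 1.5-fold lower in WT ESCs and 0 of 5 in KO ESCs. The same cut took 89 of 434 WT and 1609 of 2955 KO ESCs, so these values do not compare the lines. Pou3f1 was at 33.7 against 103 CPM in WT ESCs (-1.61, -2.53 to -0.79) and at 72.4 against 75 CPM in KO ESCs.

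Of the REX1-related genes in KO ESCs, Xist was lower and Tsix higher in cells with the most Zfp42. Rlim (0.04, -0.19 to 0.28) and Yy1 (0.15, -0.04 to 0.34) had intervals that span 0 in this comparison. Xist was at 8.34 CPM in cells with at least 3 Zfp42 UMIs and at 24.4 CPM in cells with none (-1.55, -2.13 to -0.96), and Tsix at 58.5 against 32.6 CPM (0.85, 0.44 to 1.27). In WT ESCs Tsix was at 76.5 against 42.6 CPM (0.84, 0.06 to 1.64), and Xist at 8.996 against 16.4 CPM from 4 and 10 UMIs (-0.87, -2.99 to 0.93). Of the 344 KO cells with no Zfp42 UMI, 287 were left without cells that carry markers of other types. Among those the Xist and Tsix ratios in KO ESCs were -1.21 (-1.87 to -0.52) and 0.69 (0.28 to 1.13), and 4 of 14 naïve genes were at least 1.5-fold higher, beside 4.61% of all genes. In KO 48h-EpiLCs, also without such cells, both intervals spanned 0, for Xist (-0.56, -1.66 to 0.37) and Tsix (0.28, -0.22 to 0.75). Whether REX1 has a part in these values was not tested.

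**Figure D4:**
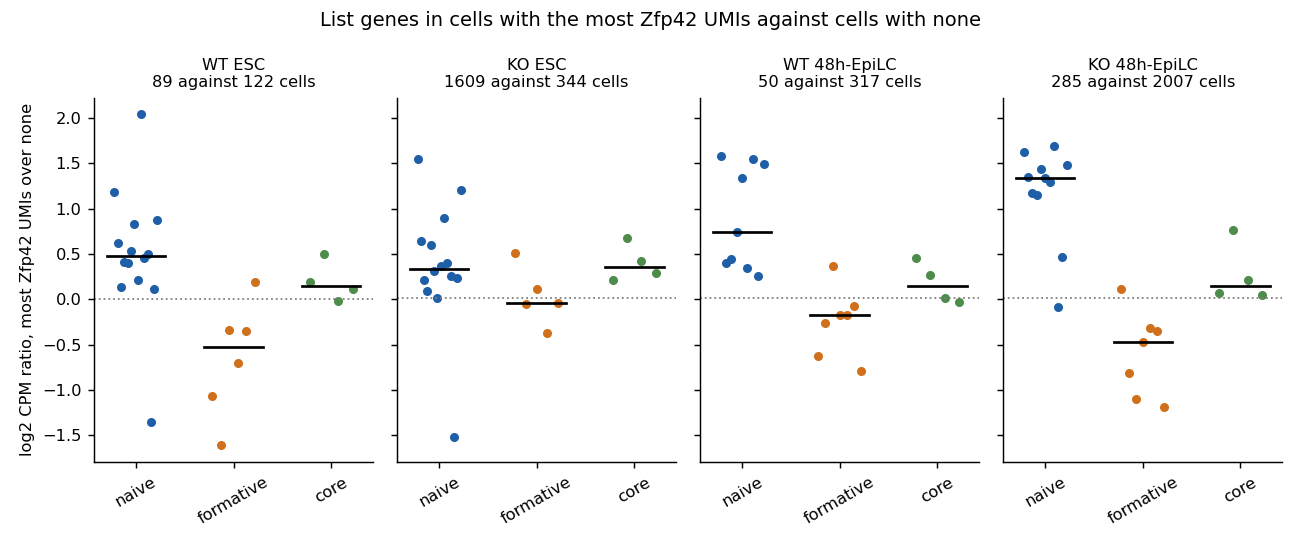
Log2 CPM ratio of each measured naïve, formative and core gene (points) in cells with the most Zfp42 UMIs (at least 3 in ESCs, 1 in WT 48h-EpiLCs, 2 in KO 48h-EpiLCs) over cells with none, with list medians (bars) and the median of all genes (dotted). The naïve genes have a median of 1.34 in KO 48h-EpiLCs, and the formative genes lie mostly below 0 in the 48h-EpiLC classes and WT ESCs. Cells with the most UMIs are unlike shares of their classes, so heights are not compared between panels.

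Across single cells, correlations with Zfp42 were weak, as sparse counts allow, and are given as a description over cells that share a library and differ in depth. Genes were taken if detected in at least 10% of the cells of both lines. In KO 48h-EpiLCs (2977 cells, 8422 genes) the highest Pearson r on log-scaled UMIs was that of Hspb1, a small heat shock protein, at 0.40, followed by Rbpj, the DNA-binding effector of Notch signalling, at 0.34 and Klf2 at 0.33. The next 7 were Eif2s2 (a subunit of the initiation factor eIF2), Calcoco2 and Gabarapl2 (both of autophagy), Zfp57 (a zinc finger factor of imprinted regions), Dnmt3l (a cofactor of de novo DNA methylation), Mylpf and Folr1 (the folate receptor), from 0.32 to 0.28. Lowest was Pou3f1 at -0.30, then Dnmt3b, a de novo DNA methyltransferase, at -0.27, Pim2, a kinase, at -0.23, and Slc16a3, a lactate transporter, and Mif, a cytokine, at -0.22 each. All 10 had a positive r in the 368 WT cells, and all 5 a negative one, where the median r over all genes was 0.004. The ranks of the 10 in WT cells ran from 2 (Hspb1) to 669 (Folr1) of 8422 genes. Hspb1 was the second highest there, at 0.22, and Pou3f1 was at -0.16. In KO 48h-EpiLCs thinned to 5000 UMIs, Hspb1 and Klf2 were at 0.19 each and Pou3f1 at -0.13. There 8 of the 10 stayed among the 10 highest.

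In KO ESCs (2978 cells, 7726 genes) the highest were Rif1 (replication timing and telomeres), Mkrn1 (a ubiquitin ligase) and Klf2 at 0.30 each, then L1td1, Rbpj, Sox2, Mybl2, Tdgf1 (the Nodal coreceptor Cripto), Cdc5l and Jarid2 (a Polycomb partner), from 0.29 to 0.27. Klf2, Rbpj and Sox2 were also among the 10 highest in WT ESCs, at 0.23, 0.21 and 0.27. The others had an r of at most 0.15 there, and L1td1 was at -0.01, so that 9 of the 10 were positive in WT ESCs. The 5 lowest were Cald1, Serpinh1, Serpine2, Itm2b and Lamb1, from -0.29 to -0.24, genes of the cytoskeleton, matrix and secretory pathway. Cells with other cell type markers moved with these values, since without them Cald1 was at -0.19 and Lamb1 at -0.10, Rif1 at 0.21 and Mkrn1 at 0.16, and 6 of the 10 highest stayed among the 10 highest. Klf2 and Rbpj were then at 0.25 each. In WT ESCs the highest r of all genes was that of Nanog, at 0.32, against 0.27 in KO ESCs.

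**Figure D5:**
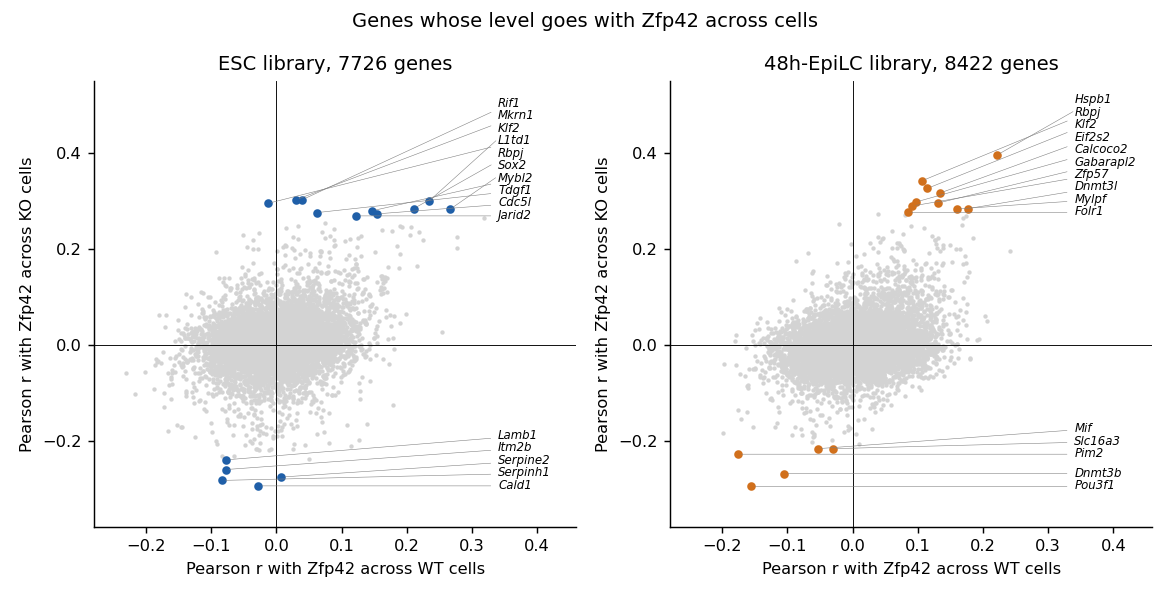
Pearson r with Zfp42 across WT cells (horizontal) and KO cells (vertical) for each gene detected in at least 10% of the cells of both lines, in the ESC library (left, 7726 genes) and the 48h-EpiLC library (right, 8422 genes), with the 10 highest and 5 lowest in KO cells named. The named 48h-EpiLC genes have the same sign in both lines, as do 9 of the 10 highest and 4 of the 5 lowest ESC genes. Several ESC genes, such as L1td1, are near 0 across WT cells.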

How the data were processed

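The libraries were made with the 10x Genomics single-cell 3′ kit. The deposited values are UMI counts per gene and barcode, which the authors obtained with Cell Ranger (version 3.0.2) at default settings on mm10 with the tdTomato coding sequence added, without normalisation. Groups were taken from the labels. From the counts, UMIs were summed per class and divided by the class total (CPM). CPM carries exact Poisson intervals, ratios exact binomial intervals conditional on the summed count, and shares Clopper-Pearson intervals (95%, counting error only). The difference between log2 ratios carries a normal approximation built from the widths of their intervals. Because each stage has 1 library, cells are not replicates, and neither tests nor p-values were computed. A class at 0 is given its exact upper limit, and 3 counts served as the limit for barcodes outside both lines. Cells were thinned without replacement, with a fixed seed. Doublets were scored with simulated doublets and, as an alternative, the top 10% of scores were left out.

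The genes named were Zfp42, the naïve, formative, core and REX1-related lists, features within 500 kb, the line markers, Cnot8, and the 10 highest and 5 lowest r in KO cells per library. Zfp42, the lists and the measures were chosen with earlier results of these data known. r was computed on ln(1 + UMIs scaled to 10000 per cell), without mitochondrial and ribosomal protein genes. Positions came from GENCODE M21. Scaling alternatives used edgeR (4.0.16) and DESeq2 (1.42.0) factors. Ratios, thinning and r were tested on simulated data. Depth was 144584246 UMIs in the ESC and 163771168 UMIs in the 48h-EpiLC library, with 1511 to 56506 UMIs in a kept cell.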

Additional observations from a re-analysis of the deposited data

Results flagged for a closer look

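Zfp42 was also measured in barcodes outside both lines as called by the reported rule, and in each of these sets it was above the limit that a count of 0 allows. Among barcodes removed for under 1000 genes it was at 293 CPM (540 UMIs) in the ESC library and 65.8 CPM (166 UMIs) in the 48h-EpiLC library, and among those removed for over 10% mitochondrial UMIs at 363 and 59.3 CPM. Of the kept cells given to neither line, those without tdTomato held 579 and 87.1 CPM with 1 Y-linked UMI and 383 and 47.2 CPM with none. Those with tdTomato held 376 and 60.6 CPM with 1 Y-linked UMI and 501 and 68.4 CPM with at least 2. The ESC value was the higher of the pair in each of these sets. Some of the kept cells among them, with at least 20000 UMIs, entered the comparison of lines called by Y-linked UMIs alone.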

How the results depend on the processing

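No log2 ratio of Zfp42 changed sign under any of the alternatives run, and the other results (shares, counts and variance over mean) cannot change sign. Of 130 recomputed values, 89 stayed within the counting interval of the reported value (for counts and shares of genes, within 1.5 times). Some of these repeat the reported value because the alternative left the cells of that class unchanged, such as a stricter KO rule for WT cells. The KO to WT log2 ratio of Zfp42 in ESCs moved to 0.78 with at least 2 tdTomato UMIs for WT cells, 0.58 in cells of at least 20000 UMIs with the line called by Y-linked UMIs alone, 1.07 without the top 10% of doublet scores, 0.89 with TMM scaling and 0.86 with median-of-ratios scaling. Median-of-ratios scaling lowers every KO to WT log2 ratio in ESCs by the same amount (-0.13). With the reported line rule in cells of at least 20000 UMIs it was 0.61. In 48h-EpiLCs the ratio of Zfp42 moved to 0.98, 0.97 and 1.57 under the first 3 of these and to 1.66 on thinned cells, and was 1.02 with the reported rule at 20000 UMIs. The stage ratio moved on thinned cells to -3.33 in WT and -2.70 in KO cells, and in KO cells also to -2.53 in cells of at least 20000 UMIs under either line call and to -2.59 with TMM scaling. The share of cells with Zfp42 moved most with depth: without thinning it was 92.0% and 97.0% in WT and KO ESCs and 41.8% and 68.4% in WT and KO 48h-EpiLCs, and at 3000 UMIs 55.2%, 77.9%, 9.81% and 23.7%. At 2 tdTomato UMIs it was 81.8% in WT ESCs and 29.2% in WT 48h-EpiLCs, by Y-linked UMIs alone in cells of at least 20000 UMIs 89.7% in KO ESCs and 17.9% in WT 48h-EpiLCs, and without cells of other markers 89.9% in KO ESCs. Variance over mean at 3000 UMIs was 1.19 in WT ESCs, 1.40 in KO ESCs and 1.30 in KO 48h-EpiLCs. Of genes in general, at least 20 CPM left 2.08% of ESC and 1.48% of 48h-EpiLC genes 2-fold higher in KO cells, and without a filter on low values the shares were 30.1% and 28.5% higher in KO cells and 18.1% (WT) and 17.1% (KO) lower in 48h-EpiLCs. In ESCs 6 of the 10 genes with the highest r were kept with Spearman's rho, 6 on thinned cells and 6 without cells of other markers. The cause of these moves was not tested, other than that thinning lowers the depth of each cell and the filter on low values sets which genes are counted. The added alternatives, chosen after seeing the data, left out cells of other markers from the comparison by Zfp42 UMIs and kept the line rule in cells of at least 20000 UMIs. No paired analysis was possible because each stage has 1 library and no test was run.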
